A study of Mus musculus with 8 samples.

Results

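The FOXO transcription factors and the core of the PI3K-AKT pathway were examined probe by probe in Thy1-positive testis cells of WT and Glis3KO2 mice. The set holds 8 genes, chosen by name: the transcription factors Foxo1, Foxo3 and Foxo4, the kinases Akt1, Akt2 and Pdpk1, and the PI3K subunits Pik3r1 and Pik3ca. The array carries 17 probes whose RefSeq accession belongs to one of these genes, among 41174 probes in all, and the 8 genes are among 17513 named genes tested. All 17 were well above background on all 8 arrays and none was saturated, so all entered the test, which ran over 36429 probes.

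In the resting state FOXO proteins sit in the nucleus and switch on genes of cell cycle arrest, stress resistance and metabolism. When a growth factor receptor activates PI3K, the catalytic subunit (Pik3ca) held by its regulatory subunit (Pik3r1) makes a membrane lipid that recruits PDK1 (Pdpk1) and AKT. PDK1 phosphorylates AKT, and AKT in turn phosphorylates FOXO proteins, which then leave the nucleus. In the testis FOXO1 marks spermatogonial stem cells and is needed for their upkeep, and GDNF acts on these cells partly through PI3K and AKT. The arrays measured transcripts, so phosphorylation and location of these proteins were outside the measurement.

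The cells came from testes of C57BL/6 pups at postnatal day 4, in 4 WT samples and 4 samples carrying the Glis3KO2 allele, with no treatment in either group. The labels call the cells spermatogonial progenitors, isolated by the surface protein Thy1. The part of Glis3 that is deleted, and whether the deletion is limited to some cells, are not given in the sources used here. The series text counts 3 testes of each genotype and the labels 4 samples, and nothing says that the samples of a genotype are separate animals. The p-values therefore take their error from the spread among these samples, part or all of which may be technical.

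The 75th percentile of signal, by which each array was scaled, was between 243 and 531 intensity units, and 86.0% to 90.3% of spots were well above background. WT replicates 3 and 4 stood apart from the rest, at 69.1 and 60.02 on a first principal component (32.3% of the variance) on which the other 6 arrays lay between -55.9 and 3.86. WT replicate 1 stood apart on the second component, at 80.8, with the other 7 arrays between -30.1 and 3.20. Glis3 itself gave less signal in all Glis3KO2 arrays (highest -1.18) than in any from WT (lowest -1.09). The difference was -1.43 on the log2 scale (exact permutation p = 0.0286, the smallest that 70 labellings allow). In the limma test over all probes, used below, its adjusted p was 0.758, so Glis3 was not called either. Its WT values were -1.09 and -1.01 in replicates 1 and 2 and 0.57 and 0.60 in replicates 3 and 4. Replicates 1 and 2 alone gave a difference of -1.03. One Thy1 probe, A_51_P420731, read -1.79 in WT replicate 3, -1.53 in WT replicate 4 and 0.90 to 1.79 on the other 6 arrays, while the second Thy1 probe read 1.33 and -0.03 in those WT samples. Genes of undifferentiated germ cells were measured for 18 of 18 listed markers, 16 of them well above background on all 8 arrays, so markers of the labelled cells were present. Markers of interstitial stroma (11 of 11 measured), peritubular myoid cells (7 of 7), macrophages (8 of 8), Sertoli cells (10 of 10), endothelium (7 of 7), lymphocytes (6 of 6) and Leydig cells (5 of 6) were measured too. In such mixed RNA fewer cells of a type and less RNA per cell cannot be told apart.

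None of the 17 probes differed between the genotypes past the threshold of 0.05 on the adjusted p (limma over all 36429 probes, Benjamini-Hochberg), and none had an unadjusted p under 0.05. The smallest adjusted p among them was 0.758. The background was as empty: 0 of 36429 probes passed (0%), while 2332 (6.40%) had an unadjusted p under 0.05, 912 higher (2.50%) and 1420 lower (3.90%) in Glis3KO2. That split moved with the scaling, to 1097 higher and 1061 lower with normexp and quantile normalization and to 598 and 2168 with normexp and the 75th percentile, which shifts the median of all probes from -0.06 to -0.31. Groups overlapped for each of the 17 probes, against 3.31% of all probes with groups that did not. The mean was higher in Glis3KO2 for 12 of the 17 probes, against 43.2% of all probes, and the median difference was 0.05, against -0.06 over all probes. All probes of Pik3r1 and Pdpk1 are among the 12, and probes of the same gene are not separate observations. The count also depended on WT replicates 3 and 4. Without them the Akt1 probes, Pdpk1 A_52_P111390 and A_52_P111397 and every Pik3r1 probe but A_52_P307938 turned lower. Only Foxo1 A_52_P453884 turned higher. The median size of the difference, whatever its sign, was 0.15 for these probes and 0.27 for all probes.

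**Figure D1:**
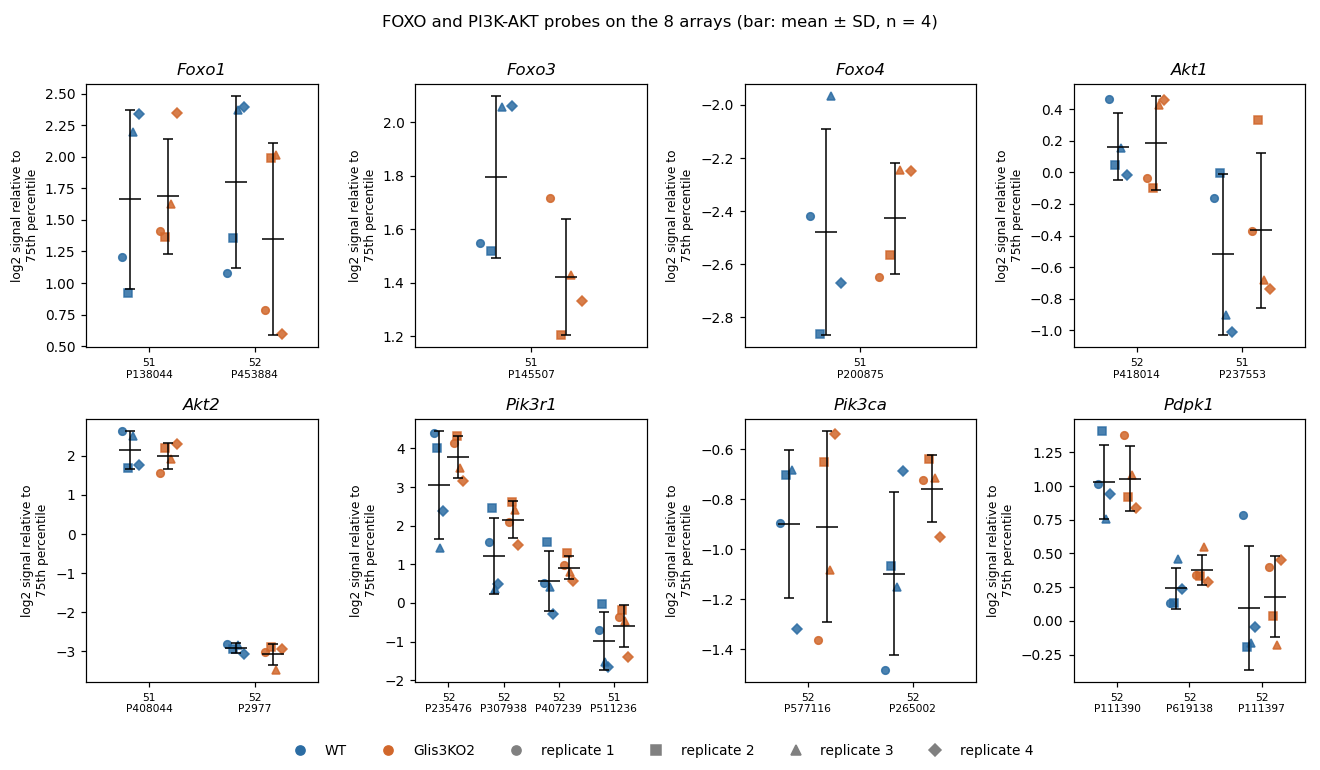
Scaled signal (log2 of signal over the 75th percentile of its array) of the 17 probes, with a panel per gene and a column per probe, a marker for each of the 8 arrays and a bar for mean ± SD (n = 4). WT and Glis3KO2 arrays overlap for every probe, and the widest spread is that of Pik3r1 A_52_P235476 in WT, from 1.42 to 4.41. Heights of different probes are not comparable.

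Promoter sequences of RefSeq (build GRCm38.p6, 250 bases before to 50 bases after a gene start) were found for 7 of the 8 genes, in 13 windows. They are shown here for 3 genes on which the account turns: Akt1, of whose 2 windows one holds the FOXO binding element, Pik3r1, the most variable gene of the set, and Foxo1, the FOXO factor of spermatogonial stem cells. The element searched was GTAAACA on either strand, which reads TGTTTAC when it lies on the other strand. The 250 bases before the gene start are printed 5′ to 3′ on the gene's strand, and capitals mark the element. Akt1 and Pik3r1 each have 2 windows, of which the one with the element is shown for Akt1 and the most upstream one for Pik3r1. The Akt1 stretch is chr12:112674885-112675134 on the minus strand, the Pik3r1 stretch chr13:101768218-101768467 on the minus strand and the Foxo1 stretch chr3:52268087-52268336 on the plus strand.
Akt1: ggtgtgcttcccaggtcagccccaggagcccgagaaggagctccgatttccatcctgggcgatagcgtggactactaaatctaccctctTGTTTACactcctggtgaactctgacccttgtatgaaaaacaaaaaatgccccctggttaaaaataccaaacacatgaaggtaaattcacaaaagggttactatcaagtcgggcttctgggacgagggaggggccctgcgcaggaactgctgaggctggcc
Pik3r1: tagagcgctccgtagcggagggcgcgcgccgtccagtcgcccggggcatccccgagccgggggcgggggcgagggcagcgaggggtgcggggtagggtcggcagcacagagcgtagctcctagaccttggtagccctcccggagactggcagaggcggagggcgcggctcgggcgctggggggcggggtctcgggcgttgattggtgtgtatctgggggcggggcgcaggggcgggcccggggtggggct
Foxo1: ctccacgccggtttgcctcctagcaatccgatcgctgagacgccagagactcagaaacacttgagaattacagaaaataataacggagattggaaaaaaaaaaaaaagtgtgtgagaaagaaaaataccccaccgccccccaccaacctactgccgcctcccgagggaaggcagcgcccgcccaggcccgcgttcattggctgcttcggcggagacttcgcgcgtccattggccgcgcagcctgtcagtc
The Akt1 element begins at position -161, counted from the gene start, and was the only match in the 13 windows of these genes. Over all promoters in the table, 1199 of 32851 windows (3.65%) hold it. A match is a string of letters, and neither it nor its absence elsewhere shows whether FOXO proteins bind there.

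Foxo1 was read by 2 probes. A_51_P138044 had log2 values of 1.20, 0.92, 2.19 and 2.34 in WT replicates 1 to 4 and 1.41, 1.36, 1.63 and 2.34 in Glis3KO2 replicates 1 to 4. The highest WT array and the highest Glis3KO2 array were level, and WT replicates 1 and 2 were the lowest of all 8. The group means were 1.66 ± 0.71 and 1.69 ± 0.45 (SD, n = 4 each), a difference of 0.02 (95% interval -0.83 to 0.87; limma adjusted p = 0.992). A_52_P453884 read 1.08, 1.36, 2.37 and 2.40 in WT and 0.79, 1.99, 2.02 and 0.60 in Glis3KO2. On this probe both WT replicates 3 and 4 lay above the other 6 arrays, and Glis3KO2 replicates 1 and 4 were the lowest. Its means were 1.80 ± 0.68 and 1.35 ± 0.76, a difference of -0.45 (interval -1.44 to 0.54; limma adjusted p = 0.833).

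The 2 Foxo1 probes thus had differences of opposite sign, and 1 array had by far the widest gap between them. Within an array the log2 ratio of A_51_P138044 to A_52_P453884 had a mean of -0.14 ± 0.23 for WT and of 0.34 ± 1.09 for Glis3KO2 (SD over 4 arrays). The ratio differed between the genotypes by 0.47, less than its spread in Glis3KO2 (two-sided exact permutation p = 0.486, and 0.943 adjusted over the 13 probe pairs compared). In Glis3KO2 replicate 4 the probes stood at 2.34 and 0.60, while in the other 7 arrays they lay within 0.63 of each other. Both probes were well above background in that array. Taking replicates 1 and 2 alone, the Foxo1 probes differed between genotypes by 0.33 and 0.17; replicates 3 and 4 alone gave -0.28 and -1.07. Without WT replicates 3 and 4 the differences were 0.63 and 0.13.

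Foxo3, a FOXO factor known in the ovary for holding primordial follicles at rest, was read by A_51_P145507. It stood at 1.55, 1.52, 2.06 and 2.06 in WT and at 1.72, 1.21, 1.43 and 1.33 in Glis3KO2. WT replicates 3 and 4 were the highest of the 8 arrays, and Glis3KO2 replicate 1 lay between them and WT replicates 1 and 2. The means were 1.80 ± 0.30 and 1.42 ± 0.22, a difference of -0.37 (SE 0.24, interval -0.92 to 0.17; limma adjusted p = 0.766), with a lower value in 3 of 4 numbered pairs. Replicates 1 and 2 alone gave -0.07 and replicates 3 and 4 alone -0.68. Without WT replicates 3 and 4 it was -0.11. Within slide 1 it was -0.23 and within slide 2 -0.52. Foxo3 kept its sign under all 19 alternative settings, between -0.47 and -0.11.

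Foxo4, the X-linked FOXO factor, gave intensities of 66.4, 73.1, 62.2 and 42.7 units in WT and 59.6, 77.4, 53.0 and 71.8 units in Glis3KO2. Its log2 means were -2.48 ± 0.39 and -2.43 ± 0.21 (n = 4 each), a difference of 0.05 (interval -0.53 to 0.63; limma adjusted p = 0.974). The replicates within a genotype spanned more than the genotypes were apart. On slide 1 it was at -0.25 and on slide 2 at 0.36.

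The AKT kinases carry the PI3K signal to FOXO, mTOR and glycogen synthase kinase. Akt1 probe A_52_P418014 had values from -0.02 to 0.47 in WT and from -0.10 to 0.46 in Glis3KO2, with a difference of 0.02 (interval -0.52 to 0.56; limma adjusted p = 0.990). Akt1 probe A_51_P237553 is printed on the array in 10 spots, whose log2 signals had an SD between 0.05 and 0.10 within an array. It read -0.16, -0.00, -0.90 and -1.01 in WT replicates 1 to 4 and -0.37, 0.33, -0.68 and -0.74 in Glis3KO2. In both genotypes replicates 1 and 2 lay above replicates 3 and 4, by 0.88 in WT and 0.69 in Glis3KO2. The spread between arrays (SD 0.51 and 0.49) was far wider than that between spots, and the genotype difference was 0.15 (interval -0.60 to 0.91; limma adjusted p = 0.932). The second Akt1 probe showed no such drop in Glis3KO2, where replicates 3 and 4 lay 0.51 above replicates 1 and 2.

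Akt2, the AKT form best known from insulin-regulated glucose uptake, was read by a bright and a dim probe. The bright probe A_51_P408044 stood at 2.62, 1.69, 2.51 and 1.77 in WT and at 1.57, 2.20, 1.93 and 2.30 in Glis3KO2. On slide 1 it was lower in Glis3KO2, by -0.82, and on slide 2 higher, by 0.52. Over both slides the difference was -0.15 (interval -0.82 to 0.52; limma adjusted p = 0.926). The dim probe A_52_P2977 gave 32.6 to 68.7 intensity units over WT arrays and 22.5 to 61.9 over Glis3KO2 arrays, with a log2 difference of -0.17 (interval -0.67 to 0.34; limma adjusted p = 0.882) that was likewise -0.43 on slide 1 and 0.10 on slide 2. The log2 ratio of the bright to the dim probe differed between genotypes by 0.02 (exact permutation p = 0.943, before adjustment).

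Pdpk1, which encodes the kinase that activates AKT, was read by 3 probes. Over the 8 arrays the steadiest probe of the whole set was one of them, with a range of 0.41. This probe, A_52_P619138, stood at 0.13, 0.14, 0.46 and 0.23 in WT and 0.34, 0.34, 0.55 and 0.29 in Glis3KO2, higher in 4 of 4 numbered pairs. The difference of 0.14 (interval -0.33 to 0.60; limma adjusted p = 0.891) was 0.15 on slide 1 and 0.13 on slide 2. Probes A_52_P111390 and A_52_P111397 differed by 0.02 (interval -0.52 to 0.56; limma adjusted p = 0.990) and 0.08 (interval -0.57 to 0.73; limma adjusted p = 0.961). The means of all 3 probes were higher in Glis3KO2, and none by more than its SE.

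Of the PI3K subunits, Pik3r1 showed the widest range of the set and Pik3ca a narrower one than Pik3r1. Over the 8 arrays the Pik3r1 probes spanned 1.62 to 2.99, and the Pik3ca probes 0.83 and 0.85. Pik3r1, which encodes the regulatory subunit p85alpha and its shorter forms, was read by 4 probes, and in each of them WT replicates 3 and 4 were the lowest of the 8 arrays. A_52_P235476 gave 7524 and 8599 intensity units in WT replicates 1 and 2 but 650 and 1412 in WT replicates 3 and 4. In Glis3KO2 the same probe gave 6552, 9128, 2811 and 3037 units. On the scaled log2 axis these are 4.41, 4.02, 1.42 and 2.38 in WT and 4.13, 4.32, 3.48 and 3.15 in Glis3KO2. The scaling thus kept the low values of WT replicates 3 and 4, and replicates 3 and 4 of Glis3KO2 were also below replicates 1 and 2.

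On the other Pik3r1 probes WT replicates 3 and 4 were again the lowest. A_52_P307938 stood at 1.57, 2.46, 0.36 and 0.49 in WT and 2.10, 2.61, 2.40 and 1.50 in Glis3KO2. A_52_P407239 stood at 0.53, 1.58, 0.42 and -0.27 in WT and 0.98, 1.29, 0.79 and 0.58 in Glis3KO2. For A_51_P511236 the values were -0.71, -0.03, -1.54 and -1.65 in WT and -0.36, -0.17, -0.46 and -1.41 in Glis3KO2. In all 4 the WT spread was wider than that of Glis3KO2, with SDs of 1.40 against 0.55, 0.99 against 0.48, 0.77 against 0.30 and 0.76 against 0.55.

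The mean of Pik3r1 was higher in Glis3KO2 on all 4 probes, by 0.72 (interval -0.66 to 2.10), 0.93 (-0.12 to 1.99), 0.34 (-0.50 to 1.18) and 0.38 (-0.54 to 1.31) in the order above, with limma adjusted p of 0.810, 0.758, 0.851 and 0.849. These probes share their target gene and their samples and do not count as 4 observations. Replicates 1 and 2 alone gave 0.01, 0.34, 0.08 and 0.10, while replicates 3 and 4 alone gave 1.42, 1.53, 0.61 and 0.66. Without WT replicates 3 and 4 they were -0.44, 0.14, -0.15 and -0.23, so that 3 of 4 turned sign. That setting keeps Glis3KO2 replicates 3 and 4, the same-numbered partners of the samples left out. The means from replicates 1 and 2 alone, given above, were positive on all 4 probes. On the 3 probes other than A_52_P307938 they were only 0.01, 0.08 and 0.10, and pairs 1 and 2 differed in sign. By numbered pairs A_52_P307938 was higher in 4 of 4 (0.53, 0.15, 2.04 and 1.01) and each of the other 3 probes in 3 of 4. With the replicate number as a block A_52_P307938 had an unadjusted p of 0.0325, and still 0.534 after limma's adjustment over all probes.

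**Figure D2:**
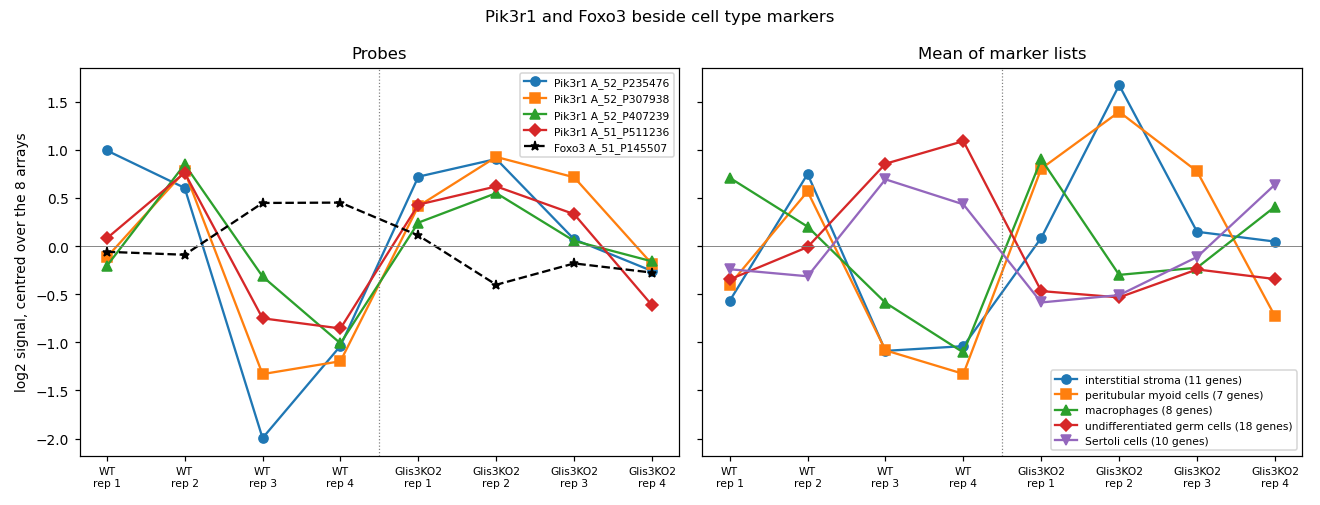
Log2 signal centred over the 8 arrays, for the 4 Pik3r1 probes and the Foxo3 probe (left) and for the mean of 5 cell type marker lists (right), with WT arrays left of the dotted line. WT replicates 3 and 4 are the lowest arrays for all 4 Pik3r1 probes and for the stroma list (-1.09 and -1.04), and the highest for the undifferentiated germ cell list (0.85 and 1.09).

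Markers of other cell types moved with Pik3r1. The mean of 11 stroma markers, centred over the arrays, ran from -1.09 to 0.75 in WT, with WT replicates 3 and 4 at -1.09 and -1.04, and from 0.05 to 1.67 in Glis3KO2. The 7 peritubular myoid markers stood at -1.08 in WT replicate 3, -1.33 in WT replicate 4 and from -0.73 to 1.39 elsewhere. The 8 macrophage markers read -0.59 and -1.11 in those WT samples and between -0.30 and 0.90 elsewhere. Germ cell markers ran the other way, at 0.85 and 1.09 there and between -0.53 and -0.01 on the other 6 arrays. The Sertoli cell mean was 0.69 and 0.43 there, and 0.64 in Glis3KO2 replicate 4. WT replicates 3 and 4 were also the lowest arrays for the 7 endothelial markers, at -0.53 and -0.46 against -0.27 or more elsewhere, and for the 6 lymphocyte markers, at -0.37 and -0.46 against -0.35 or more. The 5 Leydig cell markers did not share this order and stood highest in WT replicate 1, at 1.48. Their median difference of -0.49 rested on that array and was 0.06 without it.

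Some other probes of the set ran beside a cell type list too. Foxo1 A_51_P138044 was highest in WT replicates 3 and 4 and Glis3KO2 replicate 4, which were also the highest 3 arrays for the Sertoli cell mean. Foxo1 A_52_P453884 was lowest in Glis3KO2 replicates 4 and 1, where the macrophage mean stood at 0.41 and 0.90. Akt1 A_51_P237553 was lowest in WT replicates 3 and 4, as were the stroma markers. Akt2 A_51_P408044 was highest in WT replicates 1 and 3, where the Leydig cell mean was highest, at 1.48 and 0.59. These matches were picked out of all probes and lists after the values were seen. The gene's other probe ran less closely with the same list. Pearson r, named probe against other probe, was 0.88 against 0.26 (Foxo1, Sertoli cells) and -0.92 against -0.53 (Foxo1, macrophages). It was 0.82 against -0.30 (Akt1, stroma) and 0.81 against 0.41 (Akt2, Leydig cells). Whether the share of these cells set any value of the set was not tested.

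Across the set, WT replicates 3 and 4 were the lowest pair for 5 of 17 probes (the 4 of Pik3r1 and Akt1 A_51_P237553), against 7.69% of all probes. They were the highest pair for 2 of 17 (Foxo1 A_52_P453884 and Foxo3), against 13.8% of all probes. These counts were chosen after the values were seen.

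Pik3ca, the catalytic subunit p110alpha, did not share the pattern. Probe A_52_P265002 read -1.48, -1.07, -1.15 and -0.69 in WT and -0.72, -0.64, -0.72 and -0.95 in Glis3KO2, with WT replicate 4 among the Glis3KO2 values. The difference was 0.34 (SE 0.24, interval -0.19 to 0.87; limma adjusted p = 0.773), at 0.60 on slide 1 and 0.08 on slide 2. Probe A_52_P577116 read -0.89, -0.71, -0.68 and -1.32 in WT and -1.36, -0.65, -1.08 and -0.54 in Glis3KO2, a difference of -0.01 (interval -0.62 to 0.60; limma adjusted p = 0.995). The within-array ratio of both probes differed between the genotypes by -0.35 (exact permutation p = 0.343, before adjustment).

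**Figure D3:**
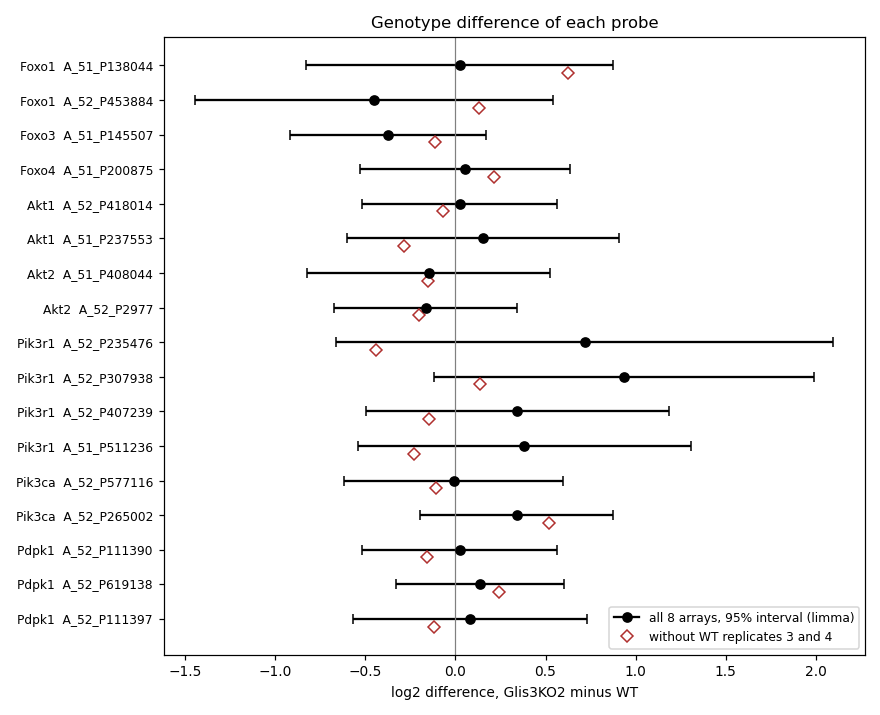
Log2 difference, Glis3KO2 minus WT, of each of the 17 probes with its 95% interval (limma, 4 against 4 arrays), and as open diamonds the same without WT replicates 3 and 4. Every interval spans 0, and for Pik3r1 the diamonds lie at -0.44, 0.14, -0.15 and -0.23.

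The genes whose signal ran most like each gene's brightest probe over the 8 arrays were found among 16634 named genes by Pearson correlation, as a description of that probe. For Foxo1 A_51_P138044 these were Hcn4 (r = 0.986), the checkpoint kinase Chek2 (r = 0.981) and the cyclin Ccne2 (r = 0.975). Over the 6 arrays without WT replicates 3 and 4 their r was 0.971 or more. Foxo3 ran with Dym (r = 0.985), the nucleoporin Nup62 (r = 0.977) and Cyp2u1 (r = 0.975), at 0.967, 0.900 and 0.905 over those 6 arrays. Pik3r1 ran with the ribosomal protein gene Rps4x (r = 0.983), the prostaglandin-degrading enzyme Hpgd (r = 0.982) and Rtn3 (r = 0.981), at 0.912, 0.926 and 0.932 over the 6. The leading gene was Rufy3 for Foxo4 (r = 0.969), Kiss1 for Akt1 (r = 0.980), Zbtb12 for Akt2 (r = 0.973), Ncstn for Pik3ca (r = 0.930) and Il10rb for Pdpk1 (r = 0.961). All these genes were picked out of 16634 for a high r over the 8 arrays. A high r over 6 of the same arrays is therefore no separate check. The 8 arrays share their preparation, and r describes these arrays only. It does not carry over to a gene's other probes: the 2 probes of a gene correlated with each other at r = 0.28 for Foxo1, -0.29 for Akt1, 0.49 for Akt2 and -0.38 for Pik3ca, and the pairs of Pdpk1 probes between -0.44 and -0.02. The 6 pairs of Pik3r1 probes correlated at 0.64 to 0.93.

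The wider pathway was described from 7 lists of 106 genes, 102 of them measured, with 1 probe per gene. None of the 102 passed over all 17513 genes (limma adjusted p; 0% of all genes passed). At an unadjusted p under 0.05 there were 3 higher and 3 lower, against 2.15% of all genes higher and 4.75% lower. The median difference over the 102 genes was -0.05, and over all genes -0.08.

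Upstream, 13 of 14 receptors and adaptors were measured, 8 with a higher mean in Glis3KO2 (against 40.8% of all genes) and 5 with a lower one, at a median of 0.15. Irs1, an adaptor that couples insulin and IGF receptors to PI3K, stood at -1.18, 0.98, -1.64 and -1.64 in WT and at 1.01, 0.96, 0.92 and 0.11 in Glis3KO2. The low values were those of WT replicates 1, 3 and 4, and WT replicate 2 lay among the Glis3KO2 arrays. Its difference was 1.62 (SE 0.54, interval 0.41 to 2.84, unadjusted p = 0.0140; limma adjusted p = 0.695). It was 0.85 when WT replicates 3 and 4 were left out. Insr, the insulin receptor, read 0.16, -0.20, -1.07 and -1.07 in WT and 0.57, 0.93, 0.27 and 0.13 in Glis3KO2. It was higher in 4 of 4 numbered pairs, by 1.02 on average (SE 0.33, unadjusted p = 0.0118; limma adjusted p = 0.695). The difference was 0.50 when WT replicates 3 and 4 were left out. Both kept probes of each of these 2 genes had a higher mean in Glis3KO2. The GDNF receptor genes Gfra1 and Ret had differences of -0.59 (SE 0.33) and -0.81 (SE 0.71).

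All 12 further PI3K subunits and partners measured (of 13 listed) had a lower mean in Glis3KO2, against 59.2% of all genes tested, at a median of -0.18. The sizes ran from -0.02 for Pik3ap1 to -0.67 for Pik3c3, the class III kinase of autophagy and endosomes (SE 0.29, unadjusted p = 0.0443; limma adjusted p = 0.695). Pik3r4, the regulatory partner of Pik3c3, was at -0.35 (SE 0.23) and lower in 4 of 4 pairs. Without WT replicates 3 and 4 the count was 7 of 12 lower, against 53.9% of all genes, with Pik3c3 at -0.97 there. With either normexp setting or the mean over a gene's probes it was 10 of 12, against 56.6% to 66.4% of all genes. The count was also 10 of 12 without WT replicate 1 or without WT replicate 4, and 11 of 12 without Glis3KO2 replicate 4. It was 9 of 12 with array weights and without any one of WT replicate 2, Glis3KO2 replicate 2 or Glis3KO2 replicate 3.

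Of 10 lipid phosphatases and AKT brakes, 5 had a higher mean, against 40.8% of all genes, and 5 a lower one. Inppl1, the phosphatase SHIP2, was lower in 4 of 4 pairs at -0.73 (SE 0.27, unadjusted p = 0.0215; limma adjusted p = 0.695). Inpp5e was at 0.52 (SE 0.24), but 1 of its 2 probes had a higher and 1 a lower mean, and over both it was at 0.08.

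Among 20 AKT partners and genes of the mTOR branch, 11 means were higher, against 40.8% of all genes, and 9 lower. Tcl1, a co-activator that binds AKT, read -0.18, 0.96, 0.51 and 0.41 in WT and -0.65, -0.67, -0.16 and -0.65 in Glis3KO2. WT replicate 1 lay just below the highest Glis3KO2 array, and the other WT arrays lay above all 4. Its difference was -0.96 (SE 0.28, unadjusted p = 0.00602; limma adjusted p = 0.695), with -1.05 from replicates 1 and 2 alone and -0.87 from replicates 3 and 4 alone. The kinase gene Mtor was at -0.83 (SE 0.43) and at -0.08 without WT replicates 3 and 4.

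Of 17 regulators of FOXO proteins, 13 had a lower mean, against 59.2% of all genes, at a median of -0.17. The count was 9 of 17 without WT replicates 3 and 4, against 53.9% of all genes. With normexp and the 75th percentile it was 9 of 17 too, against 66.4% of all genes. The acetyltransferase gene Crebbp was at -0.47 (SE 0.23), and Ywhah, one of the scaffold proteins that hold phosphorylated FOXO in the cytoplasm, at 0.41 (SE 0.21). Neither passed (limma adjusted p = 0.695 for each).

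The list of genes known in other tissues as FOXO targets had 28 of 31 measured. Of these, 19 had a higher mean in Glis3KO2, against 40.8% of all genes, at a median of 0.08. Without WT replicates 3 and 4 the count was 12 of 28, against 8080 of all 17513 genes, and the median -0.06. Besides Insr, which this list shares with the receptors, Rbl2, a pocket protein of cell cycle exit, was at 1.02 (SE 0.37, unadjusted p = 0.0209; limma adjusted p = 0.695) and higher in 4 of 4 pairs. It read 0.77, 0.60, -0.24 and -0.88 in WT and 1.33, 1.08, 0.62 and 1.31 in Glis3KO2, and the difference was 0.40 without WT replicates 3 and 4. The cell cycle inhibitor Cdkn1b was at 0.20 (SE 0.22), the repressor Bcl6 at -0.28 (SE 0.30), the catalase gene Cat at 0.09 (SE 0.23) and the mitochondrial superoxide dismutase gene Sod2 at 0.22 (SE 0.20).

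The FOXO element GTAAACA was found in the promoter windows of 5 of the 27 FOXO targets that have one (18.5%), against 4.05% of all 27025 genes in the table. The stretch around it is printed for the 4 genes where it lies before the gene start, to show the element beside the measured difference. They lie at chr2:128125799-128125829, chr3:96557824-96557854, chr4:134314914-134314944 and chr7:16310082-16310112 of GRCm38.p6, all on the plus strand, with the element in capitals.
Bcl2l11: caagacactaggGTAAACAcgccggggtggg
Txnip: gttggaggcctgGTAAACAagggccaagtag
Trim63: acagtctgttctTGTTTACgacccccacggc
Bbc3: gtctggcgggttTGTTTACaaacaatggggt
The differences of these genes were 0.07 (SE 0.23) for Bcl2l11 and 0.00 (SE 0.37) for Bbc3, both activators of apoptosis, 0.26 (SE 0.21) for Txnip, a brake on glucose uptake, and -0.26 (SE 0.40) for the muscle ubiquitin ligase gene Trim63. The Trim63 probe was well above background on 5 arrays and its fit used 7, without Glis3KO2 replicate 3, where its spot was an outlier. Sesn1, whose element lies after the gene start, was at 0.13 (SE 0.28). Each was within about its SE or little more, and none had an unadjusted p under 0.05.

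In spermatogonia Foxo1 has been linked to Ret, Lhx1, Sall4 and Egr4. All 4 had a lower mean in Glis3KO2, against 59.2% of all genes. Their differences were -0.81 (SE 0.71), -0.29 (SE 0.24), -0.30 (SE 0.31) and -0.45 (SE 0.32), while Foxo1 itself was at 0.02 and -0.45 by its 2 probes. Their mean moved with the germ cell markers, of which Ret, Lhx1 and Sall4 are members, and stood at 0.64 in WT replicate 3, 0.89 in WT replicate 4 and from -0.60 to 0.05 elsewhere. Without those samples 2 of the 4 were lower, with Egr4 at 0.04.

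**Figure D4:**
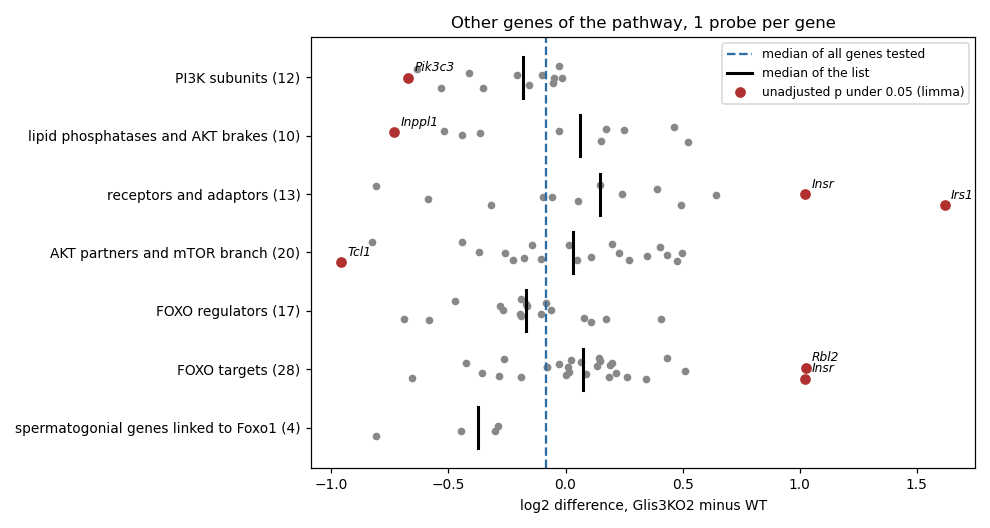
Log2 difference, Glis3KO2 minus WT, of the measured genes of 7 pathway lists (points; red with a name where the unadjusted limma p is under 0.05), with each list's median (black) and the median of all 17513 genes (dashed, -0.08). Irs1 at 1.62 and Tcl1 at -0.96 are the extremes.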

How the data were processed

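RNA of 8 samples was amplified, labelled with Cy3 and hybridised to one-colour Agilent arrays, per the labels' protocols. The deposited scanner files hold a processed intensity per spot, already corrected for background by the authors' scanner software (Feature Extraction 12.0.0.7, as the file headers state). The deposited value table matched it on 100% of spots. Flags were used as given.

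Intensities were set as log2 of signal over the array's 75th percentile, without outlier spots and with the spots of a probe averaged. Probes were named by RefSeq accession (GRCm38.p6 table; 28223 of 41174 matched 1 gene). The test took those above background on 4 or more of the 8 arrays and used lmFit and eBayes of limma 3.58.1 (R 4.3.3), with genotype as the only term. For lists, the kept probe of highest mean stood for a gene. Genes named were all probes of the set and, per list, the 2 of smallest p, with others chosen after their values were seen. Exact permutation tests used all 70 labellings. The limma fit and the permutation test were checked on simulated data with independent noise and large known changes. The other steps were not part of that check.

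The arrays lay on 2 slides with both genotypes on each. An array's place on its slide cannot be told apart from genotype, since WT took positions 1 and 2 and Glis3KO2 positions 3 and 4. Deviations of same-numbered samples correlated across genes at r = 0.16, 0.34, 0.18 and 0.13, all over the 0.1 taken as pairing. WT replicate 3 with Glis3KO2 replicate 4 (0.14) and WT replicate 4 with Glis3KO2 replicate 3 (0.12) were over it too. Pairing by number within replicates 3 and 4 is therefore not shown. The other differently numbered samples correlated at -0.24 to 0.01. The set and the lists were chosen with earlier results of these data known. Alternatives are given in the closing section.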

Additional observations from a re-analysis of the deposited data

Results flagged for a closer look

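Of 34 groups of 4 arrays tested with Dixon's criterion (17 probes in each genotype), 1 held an array far from the other 3, where chance flags about 1 in 20. It was Pdpk1 probe A_52_P111397 in WT, where replicate 1 stood at 0.78 and the other 3 WT arrays lay between -0.19 and -0.04.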

How the results depend on the processing

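Each probe of the set was recomputed under 19 other settings. No setting brought any of the 17 past the threshold (smallest limma adjusted p 0.382, Pik3r1 A_52_P307938 without WT replicate 2, where it was 1.35 with an unadjusted p of 0.00754), and 5 kept their sign in all of them: Foxo3 (-0.47 to -0.11), Akt2 A_52_P2977 (-0.56 to -0.0040), Pik3r1 A_52_P307938 (0.14 to 1.35), Pik3ca A_52_P265002 (0.0086 to 0.52) and Pdpk1 A_52_P619138 (0.081 to 0.24). Those of Akt2 and Pik3ca came close to 0, the first with normexp and quantile normalization and the second with normexp and the 75th percentile. With normexp and the 75th percentile, where the median of all probes was -0.31, Foxo4 turned to -0.49 and Akt2 A_51_P408044 to 0.12. With arrays centred on the median Pik3ca A_52_P577116 was at 0.0011. With array weights Foxo1 A_51_P138044 turned to -0.23 and Foxo4 to -0.027. Without WT replicates 3 and 4 Foxo1 A_52_P453884 turned to 0.13, Akt1 to -0.072 (A_52_P418014) and -0.28 (A_51_P237553), Pik3r1 to -0.44, -0.15 and -0.23, and Pdpk1 to -0.16 (A_52_P111390) and -0.12 (A_52_P111397). With 1 array left out in turn, the probes that changed sign ranged from -0.23 to 0.25 (Foxo1 A_51_P138044), -0.075 to 0.22 (Foxo4), -0.068 to 0.12 (Akt1 A_52_P418014), -0.078 to 0.33 (Akt1 A_51_P237553), -0.30 to 0.0093 (Akt2 A_51_P408044), -0.15 to 0.14 (Pik3ca A_52_P577116), -0.085 to 0.15 (Pdpk1 A_52_P111390) and -0.014 to 0.31 (Pdpk1 A_52_P111397). The cause was not tested.

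Over all probes 0 to 1 were called with an array left out, 1 of them without Glis3KO2 replicate 3. Over all genes 1 was called with quantile normalization of log2 signal and 1 at an adjusted p of 0.10, none of the pathway lists. With the replicate number as a block 0 were called, no other call changed, and genes with an unadjusted p under 0.05 went from 1208 to 1880. Without WT replicate 2 that count was 2398 and without WT replicate 3 it was 668. Normexp was run on the median spot signal. The number of arrays limits the precision.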
